A study of Mus musculus with 3 samples.

Results

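The vacuolar H+-ATPase (V-ATPase), the proton pump that acidifies lysosomes, was examined through 10 subunit genes chosen by symbol: Atp6v0a1, Atp6v0a2, Tcirg1, Atp6v0d1, Atp6v0d2, Atp6v1a, Atp6v1b1, Atp6v1b2, Atp6v1c1 and Atp6v1g1. They are 10 of 55536 annotated genes and 10 of 24 genes listed here as V1 or V0 subunits. All were found in the annotation. Cytosolic RNA of macrophages grown from bone marrow of C57BL/6J mice was sequenced after ribosomal RNA depletion. The cells had been given 100 ng/ml lipid A, an agonist of the receptor TLR4, for 25 minutes, and libraries were made from 1 µg of RNA each. The 3 libraries were labelled biological replicates 1 to 3 of this single group, with no genotype other than the strain, no sex or age collected and the same donor record, so nothing says that they came from separate animals. No untreated level was measured here, and every value below is a level under stimulation.

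The V-ATPase is a rotary motor. Its cytosolic V1 sector hydrolyses ATP in a ring of alternating A and B subunits, and its membrane V0 sector carries protons through a ring of small proteolipids past the large membrane subunit a, while subunits C, E, G, H and d hold or connect the 2 sectors. Mammals have paralogues of several subunits: a3, encoded by Tcirg1, serves lysosomes and the ruffled border of osteoclasts, a4 and B1 are known from acid-secreting cells of the kidney, and d2 is known from osteoclasts and from macrophage lysosomes. Macrophages use the pump to acidify phagosomes and lysosomes, which is what activates their acid hydrolases.

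The paralogues compared shared only short runs of identical bases, which bears on how reads were divided between them. The coding sequences of the d genes, the pair whose order changed between libraries, were 65.7% identical, and the longest run of bases their transcripts shared was 17. For B2 and B1 the identity was 73.9% and the longest shared run 26 bases. Tcirg1 was 59.5% identical to Atp6v0a1 and 61.2% to Atp6v0a2, and those a1 and a2 genes were 61.7% identical to each other. The longest runs shared within the a family were 20 to 29 bases. No 50-base word was shared between paralogues of a pair.

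Atp6v0a1 carried optional segments whose use was read from the transcript tables, and 3 of them are shown with 24 flanking coding bases on each side in lower case and the segment in capitals. The first extends the sixth exon of transcript Atp6v0a1-203 by 21 bases, or 7 codons (chr11:101026660-101026680, plus strand, mm10, as are all gene positions below). The others are separate exons of 18 bases, or 6 codons, that stand at the same place in the message, one in Atp6v0a1-201 (chr11:101049459-101049476) and one in Atp6v0a1-210 (chr11:101054831-101054848).
Atp6v0a1-203: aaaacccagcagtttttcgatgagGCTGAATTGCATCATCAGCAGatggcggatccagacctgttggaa
Atp6v0a1-201: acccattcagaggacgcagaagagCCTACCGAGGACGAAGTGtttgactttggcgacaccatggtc
Atp6v0a1-210: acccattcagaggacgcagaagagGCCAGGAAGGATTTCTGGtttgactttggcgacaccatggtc
Transcript Atp6v0a1-202 has none of them.

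Total expected counts, the read numbers that the authors' alignment-based tool assigned to genes, were 53055764, 43620362 and 38623777 in replicates 1, 2 and 3, so that 3 counts were worth 0.0566 to 0.0777 CPM (counts scaled to a library's total). Levels are given as TPM, which is scaled by transcript length and to a fixed sum per library and can be compared between genes. Nuclear protein-coding genes held 22.7, 22.9 and 29.8% of all TPM, so their TPM stood higher in replicate 3 as a whole, and CPM with TMM scaling (a factor per library that centres most genes) was used to compare libraries. Replicate 2 stood apart in the nuclear-retained RNA Malat1, at 1143.89 TPM against 391.96 and 374.03, and its short genes read low. The 1274 genes with the shortest transcripts (median length 717 bases) had a median deviation of -0.12 from their means on the log2 CPM scale there, and the 1274 with the longest (6379 bases) one of 0.04. The part of these shifts in the values below was not tested, apart from the removal of the length trend where it is named.

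Messages of the pump were abundant for 8 of the 10 genes, with mean levels between 61.2 and 142.1 TPM, while Atp6v0a2 stood near 5 TPM and Atp6v1b1 was at the counting floor. At least 1 TPM in every library was reached by 9 of the 10 genes, beside 41.3% of 22015 nuclear protein-coding genes. At 5 TPM the count was 8, beside 24.6%, since Atp6v0a2 fell short, and at 0.5 TPM it was 9, beside 44.8%. The median over all 10 was 89.2 ± 9.70 TPM (SD, n = 3), and the median of the protein-coding genes detected by the same rule was 7.78 ± 1.27 TPM. From the highest mean to the lowest, the order was Atp6v1a, Atp6v1b2, Tcirg1, Atp6v1g1, Atp6v0a1, Atp6v0d1, Atp6v1c1, Atp6v0d2, Atp6v0a2 and Atp6v1b1. Neighbours in that order overlapped in their library values down to Atp6v0d2, and only the steps to Atp6v0a2 and then to Atp6v1b1 were free of overlap.

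**Figure D1:**
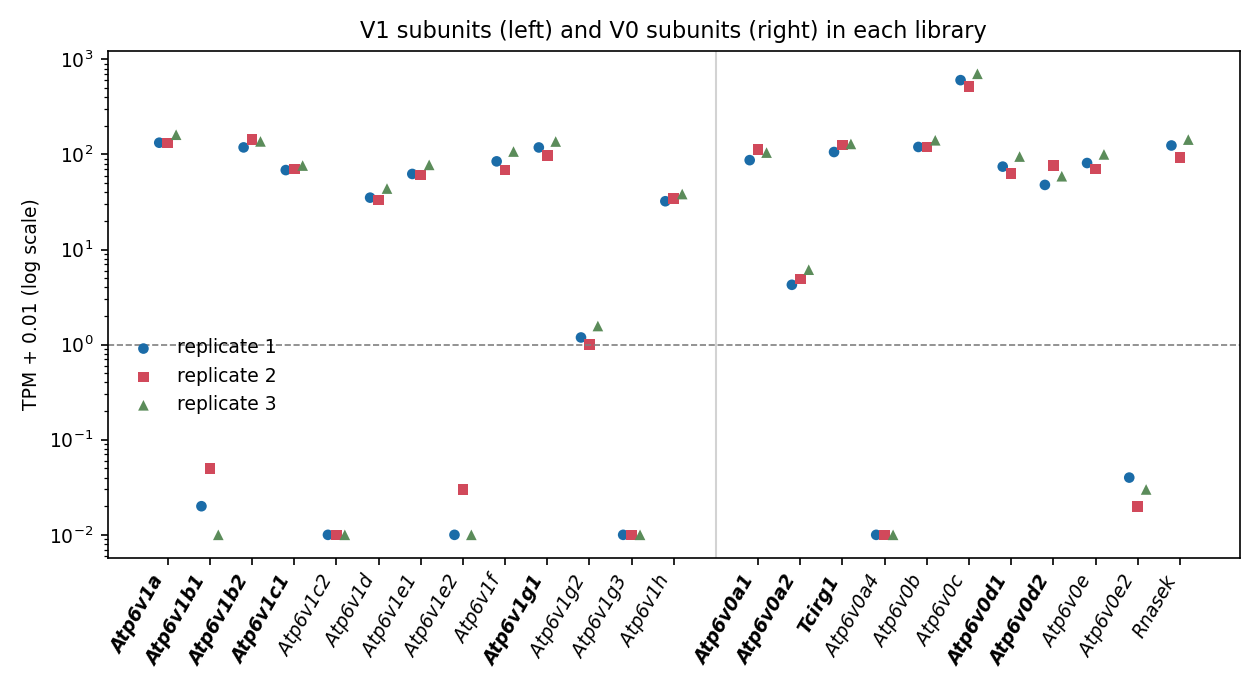
Levels of all 24 listed V1 and V0 subunit genes in each library, as TPM + 0.01 on a log axis, with V1 subunits on the left, V0 subunits on the right and the 10 genes of the set in bold. Points are libraries and the dashed line marks 1 TPM. Most subunits sit between 30 and 161 TPM, Atp6v0c lies far above them, and one paralogue of each of several subunits lies near the bottom of the axis.

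In the V1 sector, Atp6v1a (ENSMUSG00000052459.13, chr16:44085402-44139705, minus strand) encodes the catalytic A subunit and had the highest mean of the set. It stood at 132.90, 132.13 and 161.26 TPM in replicates 1, 2 and 3 (mean 142.1 ± 16.6 TPM, SD, n = 3). Replicate 3 was high and the others lay close together. In CPM, the 3 libraries gave 1034, 951 and 939, a 1.10-fold range.

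Atp6v1b2 (ENSMUSG00000006273.14, chr8:69088646-69113711, plus strand) encodes B2, the B subunit of most tissues, and was measured at 118.65, 143.76 and 137.14 TPM (133.2 ± 13.0). Its paralogue Atp6v1b1 (ENSMUSG00000006269.7, chr6:83742990-83758855, plus strand) had 1, 3 and 0 counts, or 0.01, 0.04 and 0.00 TPM, none above the 0.0211, 0.0436 and 0.0581 TPM that 3 counts stand for in each library. Of 82750 counts on the B genes, 4 were assigned to B1, a share of 0.00483% (exact Clopper-Pearson 95% interval 0.00132 to 0.0124%, for counting error alone, as the reads carry no molecular identifiers and need not be independent). The B ring was thus read almost entirely as B2 in all 3 libraries.

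Atp6v1c1 (ENSMUSG00000022295.8, chr15:38661933-38692446, plus strand) encodes C1, the subunit that bridges the V1 stalk and subunit a and leaves when the sectors separate. It stood at 68.51, 70.53 and 76.42 TPM (71.8 ± 4.11), the smallest coefficient of variation of the set in TPM at 5.7%. In log2 CPM its SD was 0.131, above those of Atp6v0a2 (0.057), Atp6v1a (0.076) and Tcirg1 (0.127). Atp6v1g1 (ENSMUSG00000039105.6, chr4:63544772-63550750, plus strand), which encodes the peripheral stalk subunit G1, stood at 118.49, 97.00 and 136.79 TPM (117.4 ± 19.9). Replicate 2 was the lowest for Atp6v1g1, the shortest transcript of the 9 expressed genes at 1135 bases.

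In the V0 sector, subunit a was split between a1 and a3. Tcirg1 (a3; ENSMUSG00000001750.16, chr19:3896050-3907133, minus strand) was measured at 106.10, 125.98 and 129.01 TPM (120.4 ± 12.4). Atp6v0a1 (a1; ENSMUSG00000019302.16, chr11:101009452-101063719, plus strand) was measured at 87.14, 113.01 and 104.61 TPM (101.6 ± 13.2). Their ranges overlapped across libraries, but within each library Tcirg1 was the higher, by 0.28, 0.16 and 0.30 on a log2(TPM + 0.1) scale (0.25 ± 0.08, SD, n = 3). An exact two-sided sign-flip permutation test gave p = 0.25 (Benjamini-Hochberg 0.312 over 5 paralogue pairs), the smallest p that 3 libraries allow. The order turned with the quantification: in the alignment-free tables the mean difference was -0.03, so which of a1 and a3 was the higher is not settled by these data.

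Atp6v0a2 (a2; ENSMUSG00000038023.12, chr5:124628576-124724455, plus strand), the a subunit known from the Golgi and endosomes, stood at 4.25, 4.88 and 6.13 TPM (5.09 ± 0.957). It was the lowest expressed a gene by a wide margin in every library, 4.55 ± 0.15 below Tcirg1 and 4.30 ± 0.22 below Atp6v0a1 on the same log2 scale (exact sign-flip permutation p = 0.25 each, Benjamini-Hochberg 0.312). The pseudocount makes these figures slightly smaller than the ratios themselves. The deposited interval of Atp6v0a2, of a level not given, was 4.14 to 4.65 and 4.66 to 5.48 TPM in replicates 1 and 2. In replicate 3 it was far wider, at 6.02 to 38.34 TPM, so the size of the margin for the gene as a whole is less certain there. The interval of its coding transcript Atp6v0a2-201, which held 98.86% of the gene's TPM in replicate 3, was narrow there, at 5.64 to 6.19 TPM. Of the summed TPM of the a genes, Tcirg1 held 53.1 ± 1.22%, Atp6v0a1 44.7 ± 1.44% and Atp6v0a2 2.24 ± 0.287%, and Atp6v0a4 had no count in any library. In the alignment-free tables the same shares were 48.4 ± 0.833, 49.4 ± 1.251 and 2.27 ± 0.426%.

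Subunit d couples the rotating V1 stalk to the proteolipid ring, and its genes had the largest coefficients of variation in TPM of the 9 detected genes, 20.7% for d1 and 23.9% for d2. In log2 CPM, the scale used to compare libraries, only d2 stood out, with an SD of 0.375. The SD of d1 was 0.174 there, below Atp6v0a1 (0.240), Atp6v1g1 (0.190) and Atp6v1b2 (0.189). Atp6v0d1 (ENSMUSG00000013160.7, chr8:105524465-105566047, minus strand), the d subunit of most tissues, was measured at 74.50, 63.30 and 95.03 TPM (77.6 ± 16.1). Atp6v0d2 (ENSMUSG00000028238.6, chr4:19876841-19922605, minus strand) was measured at 47.83, 76.78 and 59.02 TPM (61.2 ± 14.6). In replicates 1 and 3 d1 was the higher, and in replicate 2 d2 was the higher.

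The log2 difference of d1 and d2 was 0.64, -0.28 and 0.69 in replicates 1, 2 and 3 (0.35 ± 0.54; exact two-sided sign-flip permutation p = 0.5, Benjamini-Hochberg 0.5; higher d1 in 2 of 3 libraries). Without replicate 2 the mean was 0.66, with replicate 2 and either other library 0.18 or 0.20. Removing each library's trend on gene length and GC content, a setting chosen after seeing the data, gave 0.62, -0.29 and 0.72. The share of d2 in the d transcripts was 39.1, 54.8 and 38.3%, and without alignment it was 37.8, 53.6 and 37.3%. Both quantifications placed replicate 2 apart from the other libraries by a similar amount.

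**Figure D2:**
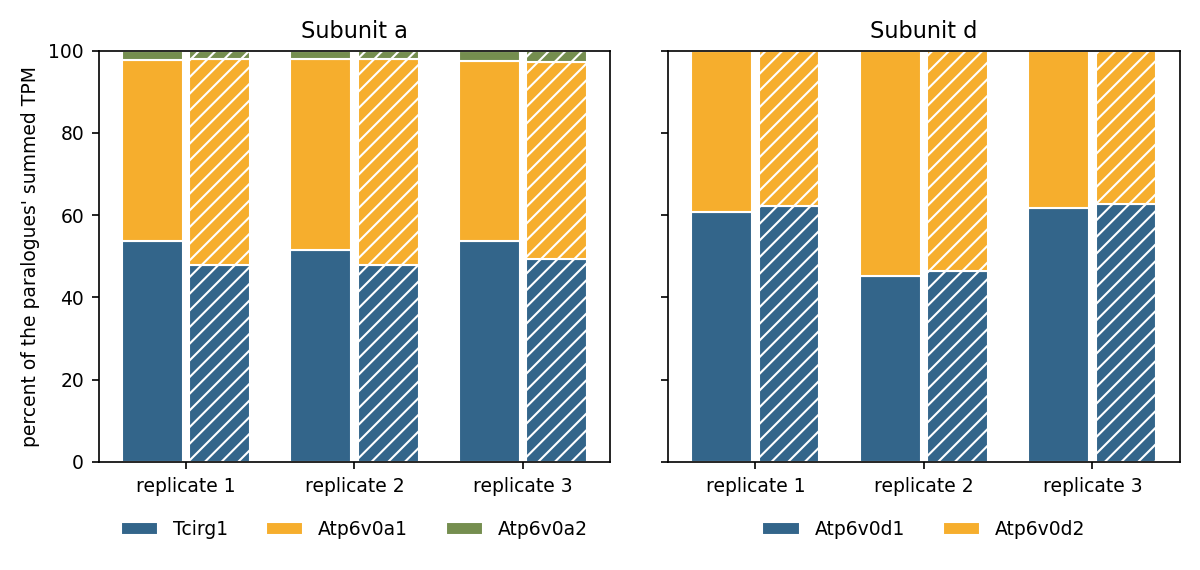
Share of each paralogue in the summed TPM of subunit a (left) and subunit d (right), one pair of stacked bars per library, with plain bars for the alignment-based and hatched bars for the alignment-free tables. Subunit a is divided in nearly the same way in all libraries, whereas Atp6v0d2 takes 54.8% of subunit d in replicate 2 and under 40% in the others.

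The messages of subunits a, d and B were compared by family sums. One complex is known to hold a single a and a single d subunit and 3 B subunits, but neither protein nor the amount of either sector was measured. The a genes summed to 197.49, 243.87 and 239.75 TPM and the d genes to 122.33, 140.08 and 154.05 TPM. The B genes summed to 118.66, 143.80 and 137.14 TPM. In each library the a sum was thus the highest, and the d and B sums exceeded each other in different libraries. In the alignment-free tables the a sum was again the highest in each library. There the d sums, at 56.30, 37.82 and 33.49 TPM, exceeded the B sums, at 52.71, 37.70 and 29.24 TPM, in every library. The order of d and B thus differed between the quantifications in replicate 2 alone, where the sums lay close together in both.

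Between libraries, 1 of the 9 genes tested varied by more than 1.5-fold from the lowest to the highest CPM, beside 17.9% of all 12744 genes tested. Atp6v1b1 did not pass the filter on low counts. The gene past that limit was Atp6v0d2, at 221, 332 and 205 CPM, a 1.62-fold range, with replicate 2 high and the others within 1.08-fold of each other. Without replicate 2 none of the 9 genes passed, beside 6.21% of all genes, and without replicate 3 none passed, with Atp6v0d2 just under the limit, beside 11.7%. The 10 osteoclast markers described below summed to 17.58, 19.84 and 24.85 TPM in replicates 1, 2 and 3. On a scale whose fixed sum runs over nuclear protein-coding genes alone, so that libraries can be set side by side, the markers summed to 77.6, 86.8 and 83.5 TPM, and without Nfatc1 and Itgb3, which macrophages are also known to express, to 8.9, 14.1 and 11.8 TPM. Atp6v0d2 stood at 211, 335.8 and 198.3 TPM on that scale. The marker sums and Atp6v0d2 were highest in replicate 2 there, but Nfatc1, the largest part of the full sum, was lowest in it, at 48.7, 47.3 and 56.5 TPM. The lowest library was replicate 1 for both marker sums and replicate 3 for Atp6v0d2. Calcr and Oscar were at 0 counts in every library, and the part of these markers in the level of Atp6v0d2 was not tested.

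On the log2 CPM scale, the other ranges from the lowest to the highest library were 0.48 for Atp6v0a1, 0.38 for Atp6v1b2 and Atp6v1g1, 0.33 for Atp6v0d1 and 0.11 to 0.25 for Tcirg1, Atp6v1c1, Atp6v1a and Atp6v0a2. The median SD of log2 CPM was 0.17 over the 9 genes and 0.13 over all genes tested. Among the 3585 genes tested in the same range of abundance, the median SD was 0.09 and 4.71% passed 1.5-fold. At a lower limit, a range of 0.32 on the log2 scale, 5 of the 9 passed beside 36.8% of all genes, and at 2-fold 0 of the 9 passed beside 7.62%.

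Within the set, replicate 2 moved the genes in different directions. In that library, Atp6v0d2, Atp6v0a1, Atp6v1b2 and Tcirg1, with transcripts of 2426 to 3430 bases, were at their highest, at 0.43, 0.23, 0.18 and 0.12 above their means in log2 CPM. Atp6v0d1 and Atp6v1g1, with 1620 and 1135 bases, were at their lowest, at -0.20 and -0.19. The longest genes, Atp6v0a2 and Atp6v1a, lay near their means, at -0.01 and -0.03. Over all 18 V1 and V0 subunits tested, replicate 2 was the lowest library in 10 (55.6%). That stands beside 39.7% of all genes tested and 48.1% of those in the set's range of abundance. Replicate 1 was the highest in 12 (66.7%), beside 26.6 and 28.7%. For the 9 genes of the set alone, replicate 2 was the lowest in 2 (22.2%), less often than among all genes tested. Replicate 3 was the lowest in 6 of the 9 (66.7%), beside 34.3 and 30.4%, and replicate 1 the highest in 4 (44.4%). The trend on length and GC content was then removed. In replicate 2, Atp6v0d2, Atp6v0a1, Atp6v1b2, Tcirg1, Atp6v0d1 and Atp6v1g1 then deviated by 0.46, 0.21, 0.17, 0.10, -0.18 and -0.13.

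**Figure D3:**
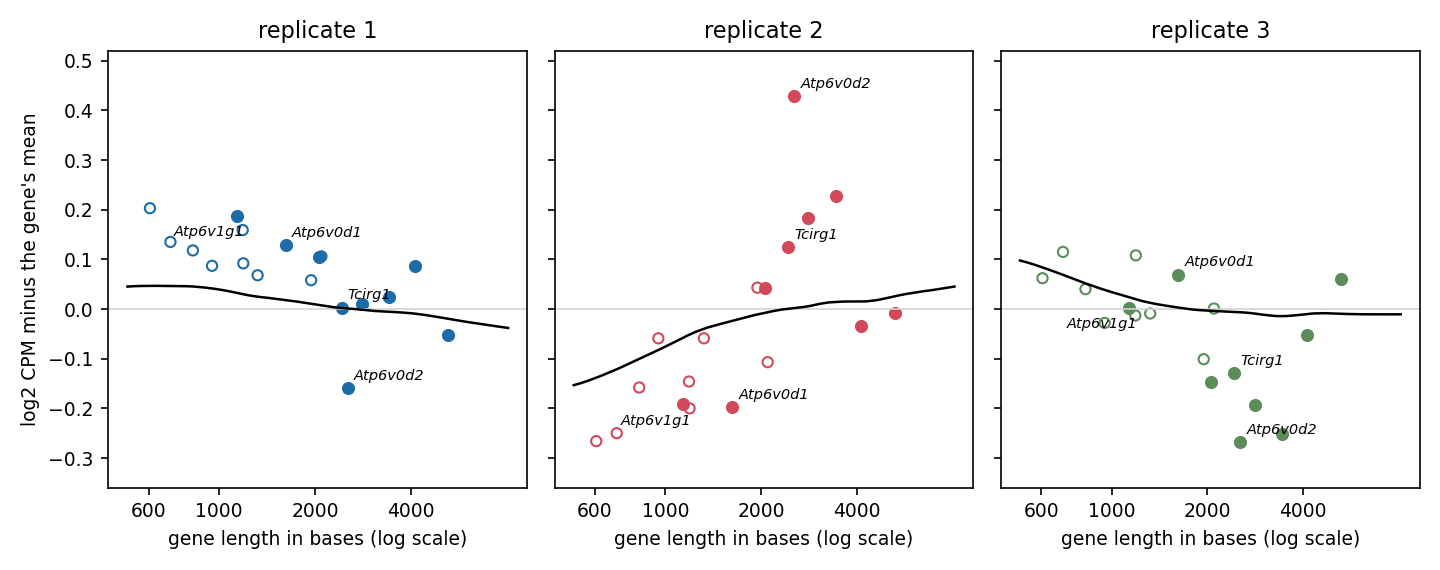
Deviation of each V1 and V0 subunit gene from its own mean over the libraries (log2 CPM, vertical axis) against gene length in bases (log axis), one panel per library. Filled points are genes of the set, open points other subunits, and the black line is the smooth trend of all genes tested. In replicate 2 the shortest subunits lie below 0 and Atp6v0d2 lies at 0.43, and several points lie farther from 0 than the trend.

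At the transcript level, Atp6v0a1 was the most divided gene of the set in the alignment-based tables, by the share of its main transcript. Transcript Atp6v0a1-202, without optional segments, held 62.0, 61.5 and 59.0% of its TPM (60.8 ± 1.58). The 21-base extension, found in transcripts 203 and 205, held 8.38, 7.53 and 7.64% (7.85 ± 0.46). In the alignment-free tables these shares were 51.2 ± 1.15% and 11.9 ± 0.37%, so the level of each depended on the quantification. Within either kind of table they differed little between libraries.

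The 18-base exons behaved otherwise. Transcript Atp6v0a1-210 took 22.6 and 16.9% in replicates 1 and 2 and 0.34% in replicate 3, and Atp6v0a1-201 took 2.25, 1.55 and 19.0%. The exon printed for 210 was thus assigned in replicates 1 and 2 and the exon printed for 201 in replicate 3. Their sum was 24.9, 18.5 and 19.3% (20.9 ± 3.47), a far smaller spread than either had alone. The deposited interval for transcript 210 was 12.83 to 19.94 TPM in replicate 1 and 0.00 to 8.30 TPM in replicate 3, and these did not overlap. The level of those intervals is not given in the sources used here. In the alignment-free tables the exchange was smaller, with 7.92, 9.64 and 1.84% for transcript 210 and 6.28, 2.40 and 11.4% for transcript 201, and the sum was 13.2 ± 1.08%. Transcripts 201 and 210 also differ in their total length, at 4008 and 3967 bases, so the segment is not the only base difference on which reads were divided.

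**Figure D4:**
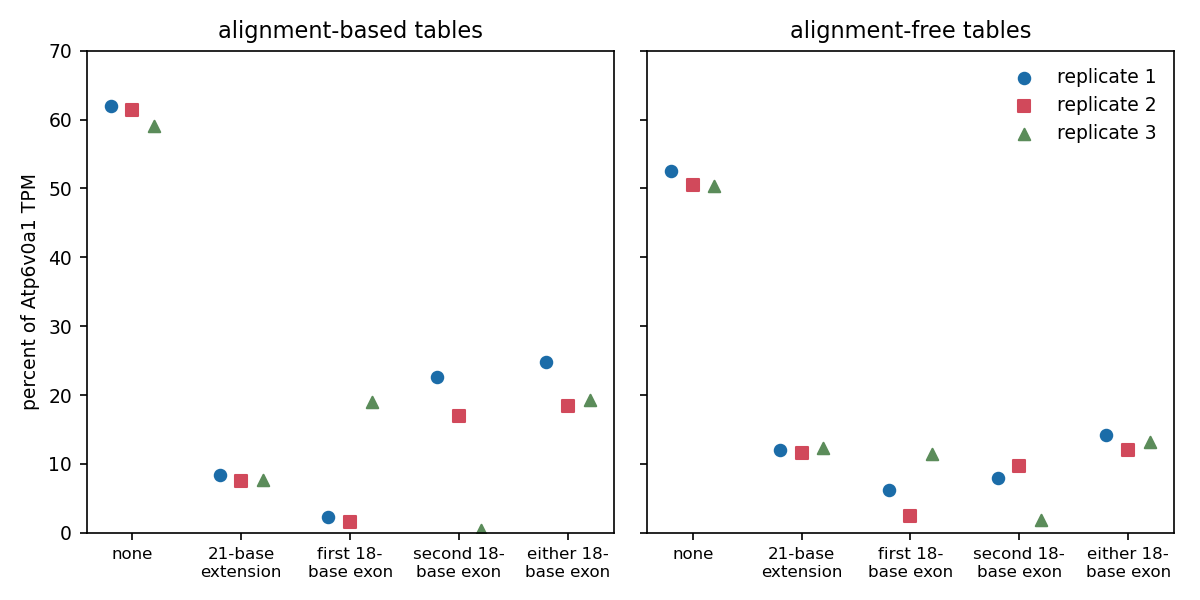
Percent of Atp6v0a1 TPM on transcripts with no optional segment, with the 21-base extension, with the 18-base exon of transcript 201 (called the first), with that of transcript 210 (called the second), and with either, one point per library. In both kinds of table replicate 3 differs from the others in which 18-base exon it was assigned, and the points for either exon lie close together.

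Transcripts of the a1 gene that are annotated as not coding held 7.23, 14.05 and 12.92% of its TPM. For Tcirg1, the main coding transcript Tcirg1-201 held 80.8 ± 3.01%, and retained-intron transcripts held 11.6, 17.3 and 13.3%, the most in replicate 2. The short retained-intron transcript Tcirg1-213 held 9.09 ± 0.84%, but 3.75 ± 1.65% in the alignment-free tables. Atp6v1a was shared by the coding transcripts 202, at 76.4 ± 3.55%, and 201, at 22.3 ± 3.09%. Without alignment these shares were 53.6 ± 6.75% and 32.8 ± 4.66%. Atp6v1a was then about as divided as Atp6v0a1, whose transcript 202 held 51.2 ± 1.15% there. A fragment annotated as Atp6v1a-203 held 0.65 ± 0.49%, against 12.0 ± 2.46% without alignment.

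The remaining genes were read nearly as a single form: transcript 201 held 96.9 ± 3.17% of Atp6v0a2, 99.2 ± 0.41% of Atp6v0d1, 99.3 ± 0.43% of Atp6v1b2, 97.6 ± 1.42% of Atp6v1c1, and all of Atp6v0d2 and Atp6v1g1. Without alignment it held less of Atp6v0a2, at 90.5 ± 4.13%, and of Atp6v1c1, at 92.1 ± 5.68%. Its mean share of the others was 98.8 to 100% there. Among the 7 expressed genes of the set with an annotated transcript that is not coding, the share on such transcripts was highest in replicate 2 for 6. Over the 7144 detected protein-coding genes with such a share above 0, it was highest in replicate 2 for 59.5%. The pump genes shared this feature of replicate 2 with most genes.

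Reads of a few genes could be shared with other loci. Of the 50-base words of Atp6v1g1, 19.2% occur in the processed pseudogene Gm13453, which was assigned 18, 10 and 18 counts, and 7.55% in Gm12344, which was assigned none. Atp6v1a shared 0.96% of its words with Gm18990, which had 4, 5 and 3 counts. The antisense gene 4930404A12Rik covers 10.8% of the words of Atp6v0a2 on the other strand and had 0 counts. The start of Atp6v1b2 overlaps Slc18a1, on the opposite strand, with 117, 123 and 60 counts. The sources used here do not give the strand setting of the counting, so the values of Atp6v0a2 and Atp6v1b2 are uncertain where the opposite strand is transcribed. How many reads of Atp6v1g1 and Atp6v1a were divided with the pseudogenes was not tested.

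MiT/TFE transcription factors are known to bind the sequence TCACGTGA near the start sites of many lysosomal genes. RefSeq promoter windows (GRCm38.p6, 250 bases before to 50 after the start) were matched for 5 of the 10 genes: Atp6v0a1, Tcirg1 with 3 windows, Atp6v0d1, Atp6v1a and Atp6v1b1. The windows of Atp6v0a1 (chr11:101010148-101010447) and Atp6v1a (chr16:44139210-44139509) lie wholly inside the gene positions given above. The RefSeq starts of both genes are thus downstream of the first annotated base, and motif positions are counted from the RefSeq start. The letters TCACGTGA, which read the same on both strands and contain CACGTG, were found in the windows of Atp6v0d1 and Atp6v1a. Of all 32851 windows in the table, 0.97% hold them and 7.15% hold CACGTG. The stretches around them are printed with TCACGTGA in capitals, from chr8:105566055-105566108 for Atp6v0d1, where the letters begin at position -4 and span the start, and chr16:44139344-44139431 for Atp6v1a, where they begin at position -132 (both minus strand).
Atp6v0d1: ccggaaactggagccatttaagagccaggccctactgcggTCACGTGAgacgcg
Atp6v1a: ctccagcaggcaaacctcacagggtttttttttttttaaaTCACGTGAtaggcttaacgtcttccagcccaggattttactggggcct
TGANTCA, with any base at N, takes in the letters of AP-1 sites but also others. It was found at position -111 in the Atp6v0a1 window and in 7.81% of all windows, and the base at N is not given here. Neither motif was found in these windows of Tcirg1 or Atp6v1b1. These matches describe letters and no binding was measured.

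Outside subunits a and d, each subunit with paralogues was read mainly as a single form. In V1, Atp6v1f stood at 86.9 ± 19.4 TPM, Atp6v1e1 at 66.9 ± 9.37, Atp6v1d at 37.3 ± 5.68 and Atp6v1h at 35.0 ± 3.11. In V0, the proteolipid gene Atp6v0c stood at 608.7 ± 94.5 TPM, ahead of Atp6v0b at 126.8 ± 12.3, Rnasek at 120.2 ± 25.4 and Atp6v0e at 83.9 ± 15.0. The complex is known to hold several copies of the Atp6v0c proteolipid. Of the other paralogues, Atp6v1c2, Atp6v1g3 and Atp6v0a4 had no counts, Atp6v1e2 had 1 and Atp6v0e2 had 7 over all libraries, and Atp6v1g2 stood at 1.24 ± 0.290 TPM. In all, 8 of 13 V1 genes and 9 of 11 V0 genes were detected by the rule above, beside 41.3% of protein-coding genes.

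Accessory and assembly factors of the pump were all detected (7 of 7, median 12.0 ± 1.31 TPM), led by Atp6ap1 at 122.0 ± 16.6, Atp6ap2 at 67.4 ± 8.70 and Tmem9b at 28.1 ± 5.25 TPM. Regulators that join or separate the sectors, the RAVE complex and TLDc proteins, were lower (7 of 8 matched genes detected, median 6.10 ± 1.32 TPM). Among these, Oxr1 stood at 22.4 ± 3.63, Dmxl1 at 19.1 ± 2.73 and Wdr7 at 15.7 ± 3.07 TPM, and Tldc2 was below 1 TPM in every library. All 4 MiT/TFE genes were detected, Tfe3 at 26.9 ± 4.81, Tfeb at 11.6 ± 1.40, Tfec at 10.3 ± 3.02 and Mitf at 9.86 ± 1.93 TPM. The mean of every core subunit from Atp6v1a to Atp6v0d2 in the order above was higher than the mean of each RAVE, TLDc and MiT/TFE gene named here.

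The label macrophage was checked against markers of this and other cells. All 8 macrophage markers were detected, with a median of 175.2 ± 27.0 TPM, among them Csf1r, Cd68 and Lyz2. Of 10 osteoclast markers, 2 were detected, Nfatc1 at 12.9 ± 3.40 and Itgb3 at 4.94 ± 0.742 TPM, which macrophages are also known to express. Acp5 stood between 0.87 and 1.48 TPM and Ctsk between 0.83 and 1.36 TPM, Dcstamp and Mmp9 lay below 1 TPM, Ocstamp and Car2 had 2 and 8 counts in all, and Calcr and Oscar had none. Neither any of the 6 kidney intercalated cell markers nor any of the 6 neuron markers was detected, where the kidney list includes Atp6v0a4 and Atp6v1g3. In such bulk samples, fewer cells of a type and less RNA per cell cannot be told apart.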

How the data were processed

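The authors deposited, per library, alignment-based gene and transcript tables with expected counts and TPM in RSEM's columns, and alignment-free transcript tables with estimated counts and TPM in kallisto's columns, per the file headers. The deposited TPM are scaled over all targets of a table, and the counts are not normalized. The labels name mm10. Tool versions and the strand setting were not given in the sources used here. The 10 genes, the other lists, the rule for named genes (all 10; per list, the 3 highest others and up to 2 below 1 TPM; every other subunit and marker; transcripts with 5% or more of a gene) and the tests were chosen with earlier results of these data known.

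Of the counts, 0.1863, 0.1672 and 0.0395% lay on rows that are not genes and were left out. Levels were means over the 3 libraries, and the spread between these libraries may be technical. Paralogues were compared within libraries as log2(TPM + 0.1) with an exact sign-flip test and Benjamini-Hochberg adjustment over 5 pairs. The p of that test is 0.25 whenever all 3 libraries agree in sign, whatever the size of the difference or its spread. For the spread, expected counts were rounded, filtered with filterByExpr and scaled by TMM in edgeR 4.0.16 (R 4.3.3), as log2 CPM with a prior count of 2. The computation was tested on simulated data. Length and GC trends were removed by lowess with a fraction of 0.3 over 12737 genes. That removal and the sums of Atp6v0a1 transcripts by optional segment were chosen after seeing the data. Coding sequences came from GENCODE M21 transcripts and were compared as nucleotides in a global alignment (Biopython 1.88), in place of a planned comparison of proteins. Alternatives included DESeq2 1.42.0 size factors, the alignment-free tables and each replicate left out.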

Additional observations from a re-analysis of the deposited data

How the results depend on the processing

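Of the values recomputed under other settings, the main results moved by less than the spread between libraries (counts of genes by less than 1.5 times) in 52 cases, moved farther in 18 and changed sign in 3, and the values of single genes stayed within that spread in 71 cases and moved in 25. Tcirg1 against Atp6v0a1 (0.25 on the log2 scale) changed sign in the alignment-free tables (-0.028) and in CPM, which is not scaled by length (-0.29), as did Atp6v0d1 against Atp6v0d2 (0.35, and -0.37 in CPM). CPM values rise with transcript length by construction. Tcirg1 against Atp6v0a2 (4.55) was 4.35 without alignment, 4.32 with a pseudocount of 1, 4.36 over coding transcripts and 3.39 in CPM. Atp6v0a1 against Atp6v0a2 (4.30) was 4.08 with a pseudocount of 1 and 3.68 in CPM. Atp6v1b2 against Atp6v1b1 rests on 4 counts, so its size follows the pseudocount: 10.2 with 0.1, 7.04 with 1, 12.6 with 0.01, 8.53 without alignment and 12.2 in CPM.

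The median level of the 10 genes was 28.7 TPM without alignment and 357.3 TPM when scaled over nuclear protein-coding genes. The shift without alignment was general. Over 9079 detected protein-coding genes, the median log2 ratio of alignment-free to alignment-based TPM was -1.06, -1.77 and -2.10 in replicates 1, 2 and 3. Relative to those medians, the mean ratios of the 9 detected genes of the set lay between -0.17 (Tcirg1) and 0.10 (Atp6v0a1). The number of genes past the 1.5-fold range (1) was 5 at a log2 range of 0.32 (36.8% of all genes), 0 at 2-fold (with 7.62% of all genes past it), 2 with no filter on low counts, Atp6v1b1 being the other (45.7% of all genes), and 0 to 1 with a replicate left out (14.6, 6.21 and 11.7% of all genes without replicates 1, 2 and 3). The median share on coding transcripts was 99.2%, and 98.8% without alignment. The number of genes detected was 9 at 0.5 TPM and with each replicate left out, and 8 at 5 TPM. No paired analysis was possible because the series holds a single group. Depth limits statements on Atp6v1b1 and the other paralogues near 0, and with 3 libraries no exact p can fall below 0.25.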

Other observations

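Other proteins that share the lysosomal membrane with the pump were also read. All 12 ion channel and exchanger genes listed were detected at 1 TPM or more in every library, beside 41.3% of protein-coding genes, with a median of 17.9 ± 1.65 TPM (SD, n = 3). The highest were Clcn7, the chloride and proton exchanger of lysosomes, at 45.3 ± 6.15 TPM, the cation channel gene Tpcn1 at 29.96 ± 3.37 TPM and Mcoln3 at 23.1 ± 5.45 TPM. Ostm1, the partner subunit of Clcn7, stood at 22.0 ± 2.06 TPM.

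The pump is also known as a part of amino acid sensing at the lysosome, where the Ragulator complex and Rag GTPases recruit mTORC1. Of 16 such genes, 15 were detected, with a median of 17.7 ± 2.90 TPM. Rragc stood at 75.3 ± 15.6 TPM, Lamtor1 at 72.9 ± 13.0 TPM and Lamtor5 at 35.8 ± 7.62 TPM. Among the Rag genes, Rragb was at 0.170 ± 0.0265 TPM, while its paralogue Rraga stood at 14.1 ± 3.01 TPM.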
